A study of Mus musculus with 4 samples.

Results

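The CD4 versus CD8 lineage transcription factors described here were 10 genes, listed by symbol as *Zbtb7b*, *Runx1*, *Runx3*, *Cbfb*, *Gata3*, *Tox*, *Tox2*, *Myb*, *Satb1* and *Mazr*, of 21926 genes in the count tables. 9 of them were found by symbol, and *Mazr* was found under *Patz1*, of which it is a synonym in RefSeq. Their mRNA was measured by droplet-based single-cell RNA sequencing of unsorted thymus cells from 1 WT mouse and 1 *Eif4g2* cKO mouse of 5 weeks, both labelled as female and as the same batch. Both mice carried *Eif4g2* flox/flox alleles, on a C57BL/6 background according to the methods of the study, and the *Eif4g2* cKO mouse also carried *Cd4*-Cre, a recombinase driven by regulatory sequence of *Cd4* that becomes active around the double-positive stage. The *Eif4g2* cKO thymus is therefore a model of loss of the translation factor eIF4G2 in late thymocytes, and its most immature cells and non-T cells need not have recombined.

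With 1 library per genotype, genotype, mouse and library cannot be told apart, and no test was possible. All intervals below are 95% intervals that cover counting error only. The deposited values were counts of unique molecular identifiers (UMIs), each standing for 1 captured mRNA molecule read near its 3′ end. After filtering, the WT library kept 6012 of 6014 barcodes and the *Eif4g2* cKO library 4335, with 18355050 and 18056277 UMIs in all and medians of 1733.5 and 2140.0 UMIs per cell. *Eif4g2* itself gave 4089 UMIs in WT and 4941 in *Eif4g2* cKO, and since a 3′ tag can lie outside a floxed part of the gene this does not check the deletion. The Y-linked genes *Uty*, *Eif2s3y* and *Kdm5d* gave 1065, 1048 and 429 UMIs in the library labelled WT but 1, 0 and 0 in that labelled *Eif4g2* cKO, and *Ddx3y* gave 1427 and 510. The library labelled WT thus went against its label of sex, and Y-linked transcripts are a further difference that cannot be told apart from genotype.

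Thymocytes pass from a double-negative (DN) stage without CD4 and CD8, through division, to a double-positive (DP) stage with both coreceptors, and positively selected cells then become CD4 or CD8 single-positive (SP) T cells. ThPOK, encoded by *Zbtb7b*, and RUNX3 with its partner CBFβ are the classical opposing factors of that choice, ThPOK for the helper lineage and RUNX3 for the cytotoxic lineage. GATA3, TOX and MYB act upstream of *Zbtb7b*, SATB1 organises chromatin at the lineage genes, and MAZR is a repressor of *Zbtb7b*.

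Cells of both libraries were clustered together without the 10 factors and without the coreceptor genes, and T lineage clusters were named from marker lists. The names are therefore rebuilt and need not match those of the study. DN-like cells numbered 96 in WT and 128 in *Eif4g2* cKO, proliferating cells 981 and 1304, DP-like cells 3353 and 2097, early post-selection-like cells 689 and 540, and mature SP-like cells 733 and 223. Early post-selection-like clusters were led by genes of T cell receptor signalling such as *Nr4a1*, *Cd69* and *Cd5*, and mature SP-like clusters by *Klf2*, *Ccr7* and *Gimap4*. A small cluster of NKT-like or γδ-like cells held 52 and 14 cells. Only 5 of the 8 markers listed for it were in the count tables. Most of the listed genes of γδ receptor chains were among the missing ones, so the γδ part of the name is weakly based. Median UMIs per cell were close between libraries in DP-like cells, at 1405 in WT and 1361 in *Eif4g2* cKO, and in mature SP-like cells, at 3513 and 3527. Levels are UMIs summed over the cells of a class and given in CPM, the UMIs of the gene for each 1000000 UMIs of that class.

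Of the 10 factors, *Runx1*, *Runx3* and *Zbtb7b* carried the hexamer bound by RUNX proteins in a RefSeq promoter window, from 250 bases before to 50 bases after a transcription start (build GRCm38.p6). The motif searched was TGTGGT or its reverse complement ACCACA, on both strands. It was present in 3 of 21 windows of the factors (14.3%) and in 16.8% of all 32851 windows. *Tox* had no entry in the promoter table. These stretches are shown because the *Runx1* and *Runx3* windows each held 2 copies of the hexamer separated by 2 bases, an arrangement found in 7 of the 32851 windows (0.0213%). The 7 include these 2 windows, and the arrangement counted was the one seen in them, so the share is no test of enrichment. Capitals mark the hexamer, and each sequence is given 5′ to 3′ on the strand of the gene, at chr16:92826025-92826054 on the minus strand for *Runx1*, chr4:135120503-135120532 on the plus strand for *Runx3* and chr3:89387739-89387768 on the minus strand for *Zbtb7b*.
Runx1: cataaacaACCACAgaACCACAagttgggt
Runx3: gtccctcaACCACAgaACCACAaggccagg
Zbtb7b: cgaggaacTGTGGTatgtgagtgggtttgg
A match describes the letters of the window and not the binding of a factor.

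The genes differ in the length of chromosome they span, which is given here because the difference between the libraries varied with it. In GENCODE M21 (GRCm38), *Tox* spans 305 kb on chromosome 4, *Runx1* 225 kb on chromosome 16 and *Tox2* 121 kb on chromosome 2. *Satb1* spans 97.1 kb, *Runx3* 57.3 kb, *Cbfb* 47.3 kb, *Myb* 36.05 kb, *Gata3* 33.0 kb, *Patz1* 20.2 kb and *Zbtb7b* 17.1 kb. Gene models on the opposite strand overlap *Zbtb7b*, *Runx1*, *Runx3*, *Gata3*, *Tox*, *Myb*, *Satb1* and *Patz1*. How strand was used in counting is not given in the sources used here, so reads of such a pair might not be separated. Of all gene models that overlap a factor, the count tables held 2, both at *Gata3*, with 0 and 3 UMIs.

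*Zbtb7b*, the gene of the helper-lineage repressor ThPOK, was detected mainly in cells after positive selection. In WT it stood at 1.88 CPM (0.901 to 3.46) in DP-like cells, 20.4 CPM (13.6 to 29.5) in early post-selection-like cells and 54.2 CPM (46.0 to 63.3) in mature SP-like cells. In *Eif4g2* cKO the values were 0 UMIs, then 10.3 CPM (5.49 to 17.6) and 29.9 CPM (19.8 to 43.2). The 0 allows a share of up to 0.143% of the 2097 DP-like cells to hold a *Zbtb7b* UMI, which does not limit how many of these shallow cells express the gene. The order of the stages was thus alike in both libraries, with each *Eif4g2* cKO value below the WT value. Among mature SP-like cells, 14.7% of those from WT and 9.9% of those from *Eif4g2* cKO carried a *Zbtb7b* UMI, and 5.3% and 2.7% did when each cell was thinned to 1000 UMIs. Erythroid cells of WT, which should lack the gene and were deeper with a median of 6089.5 UMIs, had a UMI of it in 0 of 44 cells, which allows a share of up to 6.82% of cells with a UMI and is a weak check of the background.

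*Runx3*, the gene of the cytotoxic-lineage factor, was low in dividing and DP-like cells and high before and after them. WT levels were 109 CPM (84.9 to 139) in DN-like cells, 17.3 CPM (13.9 to 21.2) in DP-like cells, 38.7 CPM (29 to 50.6) in early post-selection-like cells and 175 CPM (160 to 191) in mature SP-like cells. In *Eif4g2* cKO the levels were 66.1 CPM (50.2 to 85.5), 15.7 CPM (11.8 to 20.5), 25.4 CPM (17.3 to 35.8) and 80.0 CPM (62.9 to 100). The libraries therefore lay close together in DP-like cells and apart, with intervals that did not overlap, in mature SP-like cells. NKT-like or γδ-like cells had the highest *Runx3* level in both libraries, at 275 CPM and, in *Eif4g2* cKO, 172 CPM.

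*Runx1*, the RUNX factor of immature thymocytes, ran the other way from the DP-like stage on, falling where *Runx3* rose. Its WT level was 605 CPM (545 to 669) in DN-like cells, 500 CPM (481 to 520) in DP-like cells, 360 CPM (329 to 393) in early post-selection-like cells and 257 CPM (239 to 276) in mature SP-like cells. The *Eif4g2* cKO levels were 231 CPM (201 to 266), 185 CPM (170 to 199), 116 CPM (98.4 to 137) and 91.7 CPM (73.4 to 113). Both libraries stepped down along these stages, and the highest *Eif4g2* cKO level, in DN-like cells, did not exceed the WT level in mature SP-like cells. *Cbfb*, the non-DNA-binding partner of all RUNX proteins, was nearly flat in WT, between 64.3 and 91.2 CPM over the 4 stages in order. In *Eif4g2* cKO it ran from 46.7 CPM in DN-like to 98.3 CPM in early post-selection-like cells. There the DN-like interval (33.5 to 63.4) lay below that of DP-like cells (65.8 to 84.4).

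*Gata3* and *Tox*, which act before *Zbtb7b* in the helper branch, peaked in early post-selection-like cells. *Gata3* stood at 71.1 CPM (64.1 to 78.6) in DP-like, 301 CPM (272 to 331) in early post-selection-like and 75.2 CPM (65.6 to 85.9) in mature SP-like cells of WT, and at 84.0 CPM (74.6 to 94.3), 248 CPM (221 to 277) and 105 CPM (84.9 to 127) in *Eif4g2* cKO. *Tox*, a high mobility group factor needed for CD4 T cell development, stood at 398 CPM (381 to 415), 2574 CPM (2490.1 to 2661) and 568 CPM (541 to 596) in WT and at 235 CPM (219 to 251), 1267 CPM (1206 to 1331) and 277 CPM (245 to 313) in *Eif4g2* cKO. The peak was seen in both libraries for both genes, and for *Tox* the *Eif4g2* cKO values were about as far below WT at the peak as after it. *Tox2*, a relative of *Tox*, was barely detected, with its highest levels also in early post-selection-like cells, at 14.6 CPM (8.92 to 22.5, 20 UMIs) in WT and 11.9 CPM (6.65 to 19.6, 15 UMIs) in *Eif4g2* cKO.

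*Satb1*, *Myb* and *Patz1* were higher at the DP stage than at maturity. *Satb1* stood at 507 CPM (452 to 566) in DN-like and 3746 CPM (3694 to 3798) in DP-like cells of WT, and at 1472 CPM (1428 to 1517) in mature SP-like cells. In *Eif4g2* cKO the values were 342 CPM (304 to 383), 2862 CPM (2806 to 2919.5) and 957 CPM (895 to 1022). *Myb* stood at 371 CPM (355 to 387) in DP-like and 50.7 CPM (42.8 to 59.6) in mature SP-like cells of WT, and at 268 CPM (251 to 286) and 54.4 CPM (40.5 to 71.5) in *Eif4g2* cKO. *Patz1*, the gene of MAZR, stood at 138 CPM (128 to 148) and 43.5 CPM (36.2 to 51.8) in WT and at 112 CPM (101 to 124) and 40.5 CPM (28.7 to 55.6) in *Eif4g2* cKO. All 3 genes were thus lower in mature SP-like than in DP-like cells of both libraries, and for *Myb* and *Patz1* the mature intervals of the libraries overlapped. As a measure of free RNA, WT erythroid cells held 262 CPM (204 to 330) of *Satb1*, 29.5 CPM (12.7 to 58.1) of *Runx1* and 22.1 CPM (8.11 to 48.1) of *Tox*.

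Ordered by level over the 6 T lineage classes, some neighbours could not be separated by their intervals. For *Zbtb7b* these were mature SP-like and NKT-like or γδ-like cells, at 54.2 and 58.2 CPM in WT and at 29.9 and 28.6 CPM in *Eif4g2* cKO, and also DN-like, DP-like and proliferating cells. For *Gata3* in WT only the early post-selection-like class stood apart from its neighbour. For *Runx1* in *Eif4g2* cKO, early post-selection-like, mature SP-like and proliferating cells had overlapping neighbouring intervals, whereas in WT all neighbours were separate except mature SP-like and NKT-like or γδ-like cells. For *Cbfb* in WT every neighbouring pair overlapped. For *Myb* the DP-like and early post-selection-like intervals overlapped in both libraries, as did those of *Patz1* in DN-like and DP-like cells, its 2 highest classes.

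**Figure D1:**
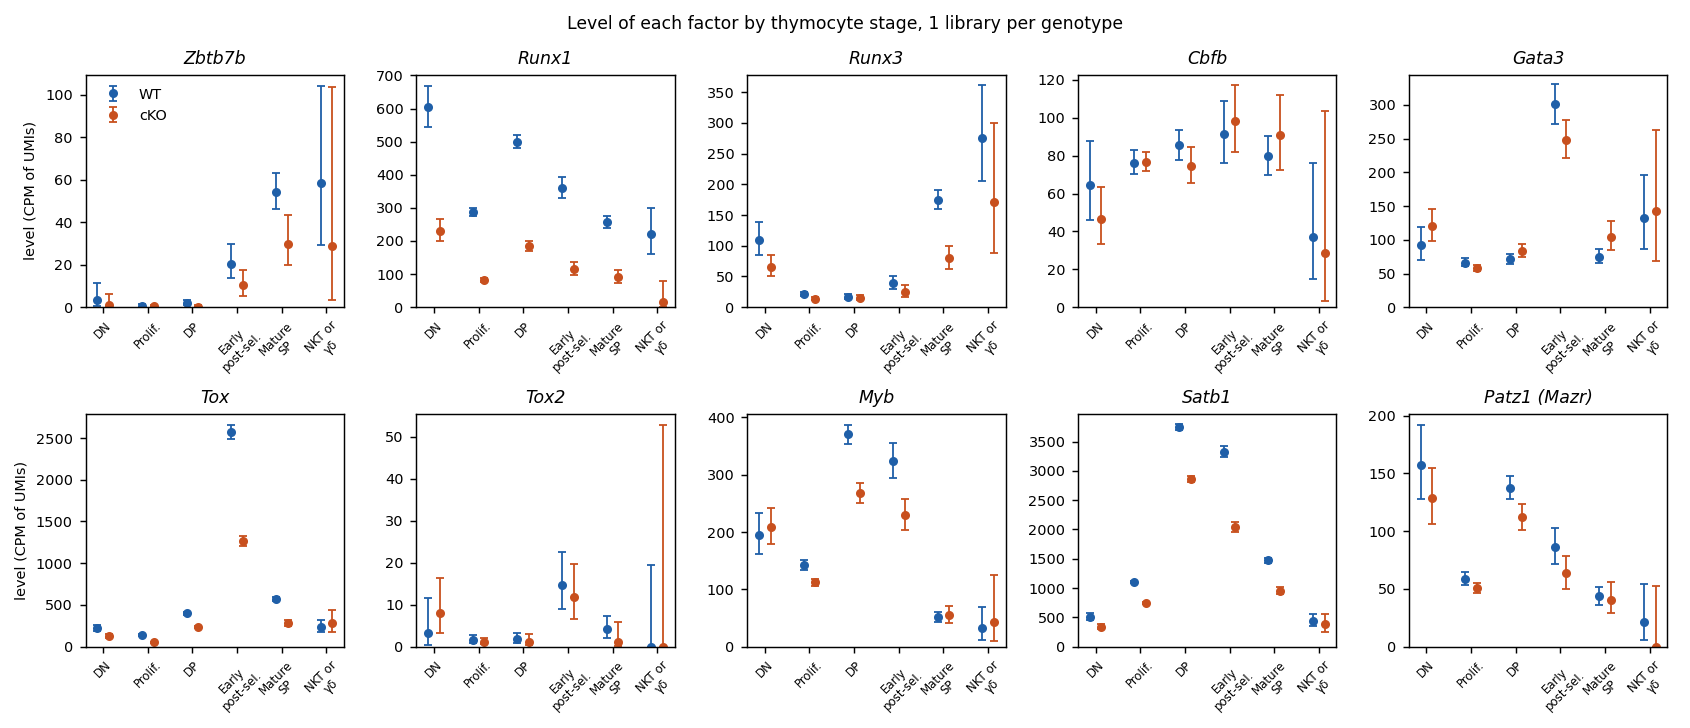
Level of each of the 10 factors (CPM, vertical axis) by T lineage stage (horizontal axis) in the WT and *Eif4g2* cKO libraries, with exact Poisson 95% intervals as bars. *Zbtb7b* and *Runx3* were highest after selection, *Gata3* and *Tox* peaked in early post-selection-like cells, at 301 and 2574 CPM in WT, and the *Runx1* points of *Eif4g2* cKO lay below those of WT at every stage.

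Within these stages the ratios between WT and *Eif4g2* cKO were read against a size of 0.5 on the log2 scale, the threshold in the methods of the study, for genes whose UMIs in the 2 libraries summed to 50 or more. In mature SP-like cells 9 factors had enough UMIs, and 5 of them were lower in *Eif4g2* cKO by over 0.5 while 0 were higher, beside 36.3% and 8.77% of all 7002 genes. The 5 were *Zbtb7b*, *Runx1*, *Runx3*, *Tox* and *Satb1*. The median log2 ratio was -0.62 over the 9 factors and -0.25 over all genes, so the ratio of the median gene was also below 0. With each ratio centred on the median of genes of like span (below), *Zbtb7b*, *Runx1* and *Runx3* were lower by over 0.5 and *Cbfb*, *Gata3* and *Myb* higher, 3 and 3 of 9, beside 18.9% and 17.2% of all genes centred alike.

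In early post-selection-like cells *Runx1*, *Runx3*, *Tox* and *Satb1* were lower, 4 of 8 factors, beside 35.3% of all genes, and 0 were higher, beside 7.95%. In DP-like cells *Runx1* and *Tox* were lower, 2 of 8, beside 29.4%, and 0 were higher, beside 8.34%. In DN-like cells *Runx1*, *Runx3*, *Tox* and *Satb1* were lower, 4 of 8, beside 24.8%, and 0 were higher, beside 9.99%. In proliferating cells *Runx1*, *Runx3*, *Tox* and *Satb1* were lower, 4 of 8, beside 35.2%, and 0 were higher, beside 3.27%. In NKT-like or γδ-like cells, with 14 cells in *Eif4g2* cKO, 1 of 3 was lower, *Runx3*, beside 18.0%, and 0 were higher, beside 21.8%. The median over the factors with enough UMIs was -0.51 in DN-like, -0.34 in DP-like and -0.55 in early post-selection-like cells, beside -0.10, -0.18 and -0.26 over all genes.

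Among the factors with at least 50 UMIs, *Runx1* had the lowest ratio in each of the 5 stages other than NKT-like or γδ-like cells. On the log2 scale its ratio (*Eif4g2* cKO to WT) stood at -1.39 (-1.64 to -1.14) in DN-like cells, -1.82 (-1.93 to -1.71) in proliferating cells and -1.44 (-1.57 to -1.31) in DP-like cells. It was -1.63 (-1.90 to -1.36) in early post-selection-like and -1.49 (-1.83 to -1.16) in mature SP-like cells. The ratio was below -1 in all 5 stages, DN-like cells included, and lowest in proliferating cells, whose interval did not overlap that of DN-like cells.

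The ratio of *Tox* was -0.75 (-1.13 to -0.38) in DN-like, -0.76 (-0.88 to -0.65) in DP-like, -1.02 (-1.11 to -0.94) in early post-selection-like and -1.03 (-1.23 to -0.85) in mature SP-like cells, on the log2 scale. *Runx1* and *Tox* both span over 100 kb, and the median ratio of all genes of that span was -0.81 in DN-like, -0.75 in DP-like, -0.92 in early post-selection-like and -0.95 in mature SP-like cells. Genes spanning up to 5 kb had a median of 0.09 in mature SP-like cells. *Tox* therefore lay near the median of long genes in these 4 stages, and *Runx1* lay below it. In proliferating cells *Tox* stood at 138 CPM in WT cells and 50.3 CPM in *Eif4g2* cKO cells, a ratio of -1.45 (-1.60 to -1.30) beside a median of -0.96, so there both lay below it. The mature ratio of *Tox* was -0.37 at a clustering resolution of 0.6 and also with stages set by summed marker UMIs, within the size of 0.5. The part that span has in these ratios was not tested.

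The ratio of *Satb1* was -0.39 (-0.42 to -0.35) in DP-like, -0.71 (-0.78 to -0.64) in early post-selection-like and -0.62 (-0.73 to -0.52) in mature SP-like cells, beside medians of -0.31, -0.40 and -0.40 for genes of 20 to 100 kb. *Runx3*, of the same span class, stood at -0.14 (-0.65 to 0.36) in DP-like, -0.61 (-1.29 to 0.05) in early post-selection-like and -1.13 (-1.50 to -0.78) in mature SP-like cells. It was also lower in DN-like cells, at -0.73 (-1.26 to -0.20), and in proliferating cells, at -0.59 (-0.92 to -0.26). Its interval held 0 in DP-like and early post-selection-like cells, and at maturity it lay wholly below the class median. *Zbtb7b*, a 17.1 kb gene, could be read only in mature SP-like cells, where its ratio was -0.86 (-1.49 to -0.27) beside a median of -0.01 for genes of 5 to 20 kb. That ratio was -0.0033 when the cells were clustered at a resolution of 0.6, so it rests on how mature cells were delimited.

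Of the remaining factors, *Myb* was lower at a ratio of -0.47 (-0.58 to -0.35) in DP-like and -0.50 (-0.72 to -0.28) in early post-selection-like cells, and *Patz1* at -0.29 (-0.48 to -0.11) and -0.44 (-0.87 to -0.02). *Cbfb* stood at -0.20 (-0.42 to 0.03) and 0.11 (-0.26 to 0.48) in those stages. In mature SP-like cells the log2 ratio was 0.19 (-0.19 to 0.55) for *Cbfb*, 0.10 (-0.39 to 0.57) for *Myb* and -0.10 (-0.66 to 0.43) for *Patz1*. These mature intervals held 0, and their widths give the sizes of difference that these depths could not show. *Gata3* was the only factor whose ratio in a stage was above 0 with an interval apart from 0, at 0.24 (0.02 to 0.47) in DP-like and 0.48 (0.12 to 0.83) in mature SP-like cells. The mature value was 0.051 with cells thinned to 1000 UMIs and 1.14 at a clustering resolution of 0.6. Of the coreceptor mRNAs, *Cd4* stood at 316 CPM and 449 CPM in mature SP-like cells of WT and *Eif4g2* cKO, *Cd8a* at 385 and 373 CPM, and *Cd8b1* at 763 and 674 CPM.

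**Figure D2:**
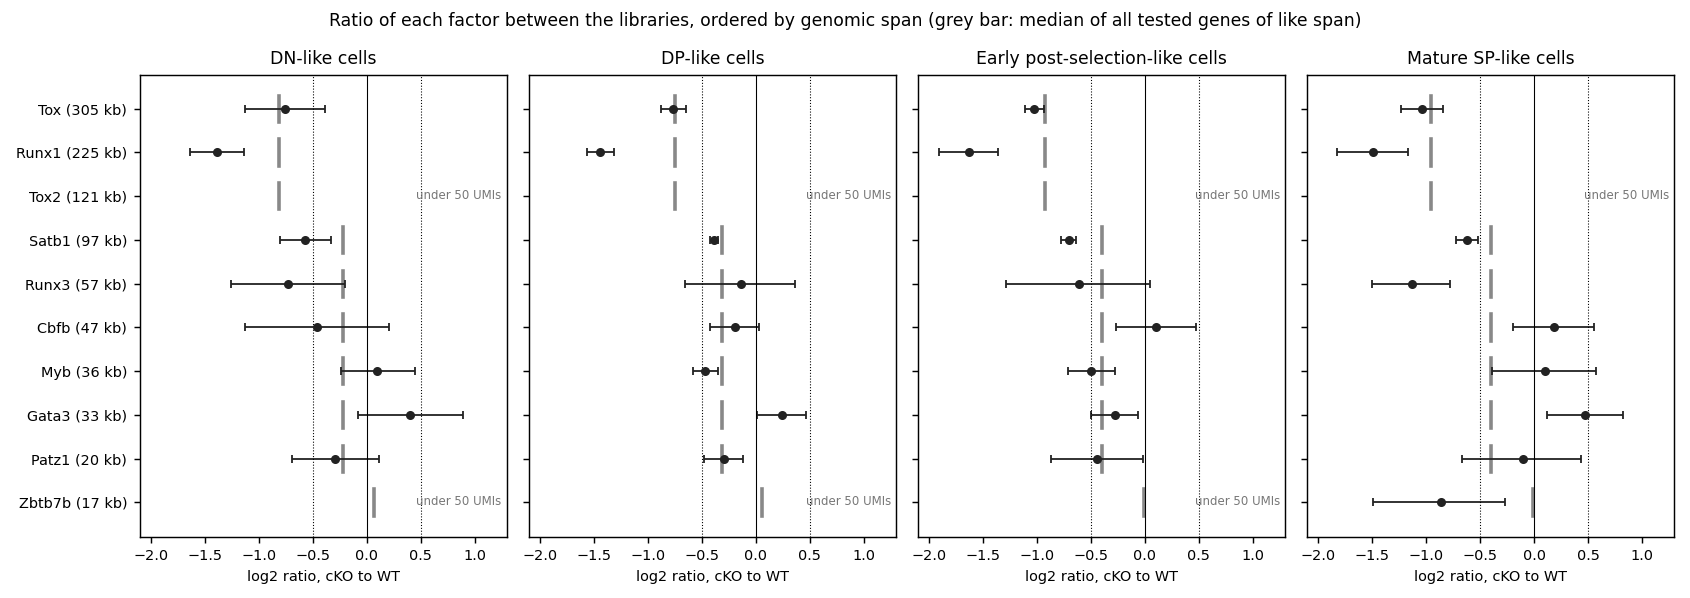
Log2 ratio of *Eif4g2* cKO to WT (horizontal axis) for each factor, ordered by genomic span, in DN-like, DP-like, early post-selection-like and mature SP-like cells, with exact conditional binomial 95% intervals, grey bars at the median of all genes of like span and dotted lines at the size of 0.5. *Runx1* lay between -1.63 and -1.39, left of the grey bar in each panel, and *Tox* lay near it.

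Of the markers of other cells, those of erythroid cells differed most between the libraries. The summed level of 5 erythroid markers in mature SP-like cells was 206 CPM in the WT and 9.6 CPM in the *Eif4g2* cKO library, and in DP-like cells 274 and 15.7 CPM. The 15 myeloid and dendritic markers summed to 196 and 184.5 CPM in mature SP-like cells, with *Xcr1* and *Clec9a* at 0 in both, and proliferation markers to 1013 and 1241 CPM. The part of these cells or their free RNA in the ratios of the factors was not tested.

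The DP-like cells came from 3 clusters with unequal shares of the libraries, and the ratios of the long factors were not the same in them. Cluster 0 held 2539 WT and 114 *Eif4g2* cKO cells, cluster 1 held 106 and 1413, and cluster 2 held 708 and 570. In cluster 0 *Runx1* stood at 532 CPM in WT cells and 537 CPM in *Eif4g2* cKO cells, a log2 ratio of 0.01 (-0.28 to 0.29). It stood at 345 and 146 CPM in cluster 1, a ratio of -1.24 (-1.71 to -0.73), and at 401 and 187 CPM in cluster 2, a ratio of -1.10 (-1.33 to -0.87). The 114 *Eif4g2* cKO cells of cluster 0 were thus at the WT level of *Runx1*, while the other *Eif4g2* cKO cells were lower.

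*Tox* followed the same division, with ratios of -0.05 (-0.38 to 0.27), -0.78 (-1.24 to -0.30) and -0.33 (-0.56 to -0.11) in clusters 0, 1 and 2. In cluster 0 *Satb1* stood at 3957 CPM in WT cells and 5059 CPM in *Eif4g2* cKO cells, a ratio of 0.35 (0.26 to 0.45), and its ratios were -0.11 (-0.27 to 0.05) and -0.09 (-0.15 to -0.02) in clusters 1 and 2. The lower *Satb1* level of all DP-like cells of *Eif4g2* cKO was therefore not found at its full size within any of the 3 clusters. *Gata3* in cluster 0 stood at 72.7 CPM in WT cells and 137 CPM in *Eif4g2* cKO cells, a ratio of 0.91 (0.30 to 1.47) that rests on 28 UMIs in *Eif4g2* cKO. *Cd4* was higher in *Eif4g2* cKO in cluster 0 as well, by 0.88 (0.75 to 1.01), and *Cd8a* stood at 0.01 (-0.17 to 0.18). Genes spanning over 100 kb had a median ratio of 0.08 in cluster 0, -0.42 in cluster 1 and -0.41 in cluster 2. *Uty*, *Eif2s3y* and *Kdm5d* together gave 1062 UMIs in the WT cells and 0 in the *Eif4g2* cKO cells of cluster 0. The clusters were built from gene counts of both libraries, so that differences between the libraries also shaped them, although none of the 10 factors was among the clustering genes.

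**Figure D3:**
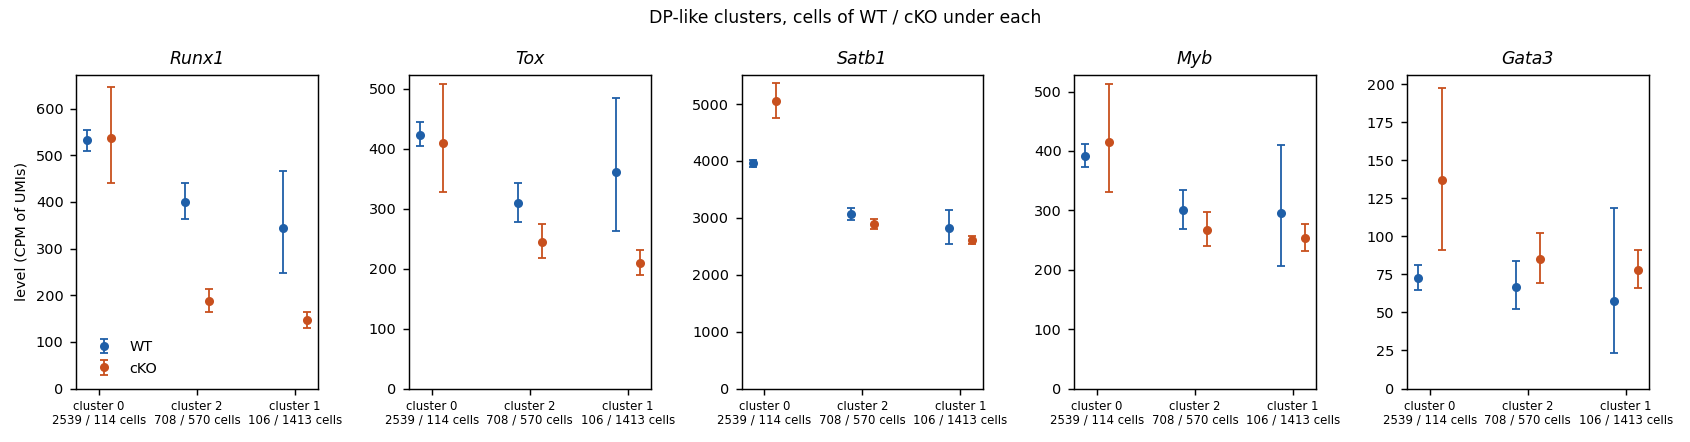
Levels of *Runx1*, *Tox*, *Satb1*, *Myb* and *Gata3* (CPM, vertical axes, with exact Poisson 95% intervals) in the 3 DP-like clusters of each library, with the cells of WT and *Eif4g2* cKO under each cluster. The *Runx1* levels coincided in cluster 0, at 532 and 537 CPM, and stood apart in clusters 2 and 1.

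Coreceptor UMIs were used to sort mature SP-like cells into cells with *Cd4* UMIs only and cells with *Cd8a* or *Cd8b1* UMIs only. WT had 146 Cd4-only and 272 Cd8-only cells, and *Eif4g2* cKO 35 and 64, with median depths of 3126.5 and 3600 UMIs in WT and 2557 and 3617 in *Eif4g2* cKO. A cell with few UMIs can miss a coreceptor by chance, and free coreceptor RNA was present, so the gates are mixtures. In WT, 9 factors had enough UMIs for this comparison. *Zbtb7b*, *Gata3*, *Tox* and *Runx1* were higher in Cd4-only cells by over 0.5, 4 of 9, beside 11.7% of all genes. *Runx3* and *Myb* had values beyond 0.5 on the Cd8-only side, 2 of 9, beside 11.6%, of which only that of *Runx3* had an interval apart from 0.

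*Zbtb7b* and *Runx3* showed opposite differences in WT. *Zbtb7b* stood at 91.2 CPM (66.5 to 122) in Cd4-only and 22.0 CPM (14.1 to 32.7) in Cd8-only cells, a log2 difference of 2.05 (1.31 to 2.83). *Runx3* stood at 66.9 CPM (46.0 to 93.9) in Cd4-only and 280 CPM (249 to 313, 305 UMIs) in Cd8-only cells, a difference of -2.06 (-2.63 to -1.54). Over the alternative settings the *Runx3* difference ran from -2.85 with cells thinned to 1000 UMIs to -1.52 at a clustering resolution of 0.6, and that of *Zbtb7b* from 1.68 to 2.47. Each gene was also detected in the gate of the other lineage.

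*Gata3* was higher in WT Cd4-only cells, at 109 against 46.7 CPM, a log2 difference of 1.23 (0.65 to 1.81). *Tox* stood at 752 and 466 CPM, a difference of 0.69 (0.49 to 0.89), and *Runx1* at 312 and 195 CPM, a difference of 0.68 (0.37 to 0.98). The *Gata3* difference was -0.093 when stages were set by summed marker UMIs and -0.048 when early post-selection-like cells were included, where that of *Tox* was -0.062. *Satb1* was 0.39 (0.26 to 0.51) higher in Cd4-only cells, within the size of 0.5. The differences of *Myb*, at -0.62 (-1.56 to 0.23), of *Cbfb*, at -0.43 (-1.05 to 0.17), and of *Patz1*, at -0.19 (-1.04 to 0.60), had intervals that held 0, so that no direction was detectable at this depth. *Tox2* had 1 and 8 UMIs.

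In *Eif4g2* cKO only *Tox* and *Satb1* had enough UMIs, and both were higher in Cd4-only cells by over 0.5, 2 of 2, beside 15.4% of all genes, and 0 were higher in Cd8-only cells, beside 9.96%. *Tox* stood at 449 and 133 CPM, a log2 difference of 1.75 (1.08 to 2.44), and *Satb1* at 1239.7 and 532 CPM, a difference of 1.22 (0.86 to 1.58). The *Tox* difference was 0.46 with each library clustered alone and 0.24 when early post-selection-like cells were included, and that of *Satb1* was 0.43 with cells thinned to 1000 UMIs and 0.50 when early post-selection-like cells were included, so the count of 2 depends on these choices. *Zbtb7b* had 6 UMIs in Cd4-only and 2 in Cd8-only cells, 58.6 and 7.83 CPM, a difference of 2.90 (0.42 to 6.24). It was thus higher in Cd4-only cells of both libraries, with few molecules behind the *Eif4g2* cKO value.

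*Runx3* in *Eif4g2* cKO had 6 and 19 UMIs, 58.6 CPM (21.5 to 127) in Cd4-only and 74.4 CPM (44.8 to 116) in Cd8-only cells, a log2 difference of -0.34 (-1.96 to 1.04). The Cd8-only excess of *Runx3* seen in WT was not detectable there, and the difference between the libraries was not tested. Set side by side, the Cd8-only cells carried 280 CPM of *Runx3* in the WT and 74.4 CPM in the *Eif4g2* cKO library, a ratio of -1.91 (-2.66 to -1.24), beside a median of -0.36 over all genes in that gate. The Cd4-only cells carried 66.9 and 58.6 CPM, a ratio of -0.19 (-1.74 to 1.08). Other genes listed for the cytotoxic lineage also differed within the Cd8-only gate. For *Nkg7* its WT cells held 457 CPM against 157 for *Eif4g2* cKO cells, and for *Itgae* 118 against 23.5, the last from 6 UMIs. *Klrd1* had 25 UMIs in 272 WT cells against 0 in 64 *Eif4g2* cKO cells, so the smaller gate sets only a loose limit. *Xcl1* and *Eomes*, with 6 and 1 UMIs in each library, had higher CPM in *Eif4g2* cKO. The gate need not hold like cells in both libraries, and *Runx3* in matched CD8 cells was not tested. In cells with both coreceptors *Runx3* stood at 131 CPM (110 to 154) in WT and 93.6 CPM (68.8 to 124) in *Eif4g2* cKO.

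Among Cd8-only cells *Tox* was also lower in *Eif4g2* cKO, with a log2 ratio of -1.81 (-2.35 to -1.31), as were *Runx1*, at -1.47 (-2.25 to -0.78), and *Satb1*, at -1.24 (-1.51 to -0.99). *Gata3* was higher, at 46.7 CPM in the WT and 97.9 CPM in the *Eif4g2* cKO library, a ratio of 1.07 (0.31 to 1.78). *Cbfb* stood at 87.1 and 86.1 CPM, a ratio of -0.02 (-0.76 to 0.66). Among Cd4-only cells the ratio was -1.54 (-2.57 to -0.66) for *Runx1*, -0.74 (-1.22 to -0.30) for *Tox*, -0.41 (-0.69 to -0.14) for *Satb1* and 0.68 (-0.17 to 1.48) for *Gata3*.

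**Figure D4:**
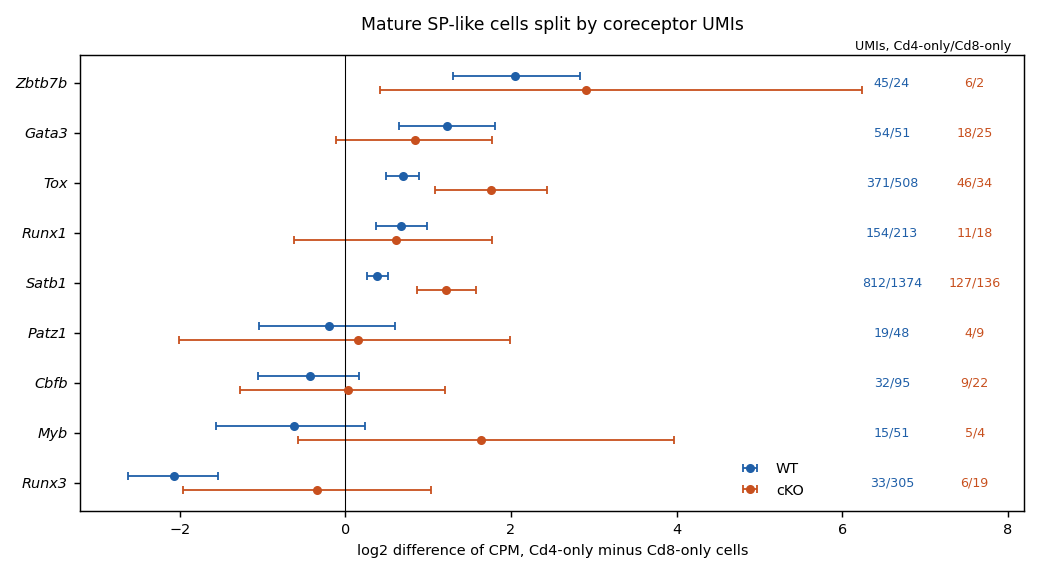
Log2 difference between Cd4-only and Cd8-only mature SP-like cells (values above 0 are higher in Cd4-only cells) for 9 factors (*Tox2* was left out for its few UMIs) in the WT and *Eif4g2* cKO libraries, with UMIs at the right and exact conditional binomial 95% intervals. In WT *Zbtb7b* stood at 2.05 and *Runx3* at -2.06, while the *Eif4g2* cKO interval of *Runx3* ran from -1.96 to 1.04.

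**Figure D5:**
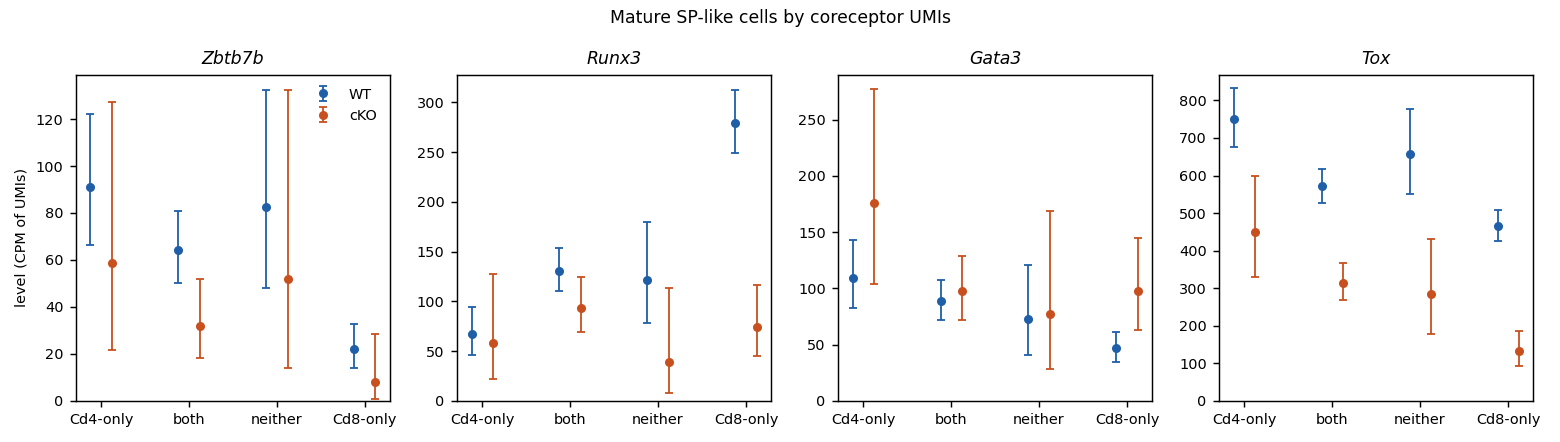
Levels of *Zbtb7b*, *Runx3*, *Gata3* and *Tox* (CPM, vertical axes, with exact Poisson 95% intervals) in mature SP-like cells with *Cd4* UMIs only, both coreceptors, *Cd8a* or *Cd8b1* UMIs only, or neither, in each library. A gate need not hold like cells in both libraries. The *Runx3* level of Cd8-only cells was 280 CPM in the WT and 74.4 CPM in the *Eif4g2* cKO library, and the levels in cells with both coreceptors were 131 and 93.6 CPM.

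In early post-selection-like cells of WT *Zbtb7b* had 14 UMIs in Cd4-only and 4 in Cd8-only cells, 115 and 7.69 CPM, a log2 difference of 3.91 (2.24 to 5.97). In *Eif4g2* cKO it had 2 and 0 UMIs, and the interval began at -0.52 without an upper limit. Cd8-only cells made up 40.2% of this class in WT, at a median of 1639 UMIs, and 22.2% of WT DP-like cells. The gate can therefore hold many cells with missed *Cd4*, and need not mark a CD8 branch. Of 7 factors with enough UMIs in this class of WT, 0 had values beyond 0.5 on the Cd4-only side, beside 9.96% of all genes. On the Cd8-only side 1 did, *Myb*, at -2.20 (-3.28 to -1.29), beside 25.4%. In *Eif4g2* cKO *Runx1*, at 0.62 (-0.24 to 1.41), and *Myb*, at -0.76 (-1.65 to 0.04), were beyond 0.5 on opposite sides, 1 and 1 of 6, beside 7.35% and 17.4%, and neither direction was detectable, since both intervals held 0. DP-like cells with *Cd4* UMIs only numbered 24 in WT and 13 in *Eif4g2* cKO. In WT the values of 2 and 2 of 7 factors lay beyond 0.5 on the Cd4-only and Cd8-only sides, beside 25.6% and 34.3% of all genes, and all 4 intervals held 0. In *Eif4g2* cKO 5 of 5 lay on the Cd4-only side and 0 on the Cd8-only side, beside 25.3% and 52.8%. Of those 5, *Runx1* at 3.61 (2.88 to 4.31), *Satb1* at 1.70 (1.42 to 1.97) and *Tox* at 1.35 (0.18 to 2.33) had intervals apart from 0, and *Myb* and *Patz1* did not. These 3 values rest on 25, 125 and 9 UMIs in the 13 Cd4-only cells. Among DP-like cells this gate can hold cells with missed *Cd8a* and *Cd8b1*, and need not mark a CD4 branch. The DP-like clusters, which differed in *Runx1* level, were not separated here.

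*Zbtb7b* and *Runx3* were also compared within single cells. Among WT mature SP-like cells, 21 of the 108 with a *Zbtb7b* UMI also had a *Runx3* UMI (19.4%, exact binomial interval 12.5 to 28.2), against 223 of the 625 without (35.7%, 31.9 to 39.6). In *Eif4g2* cKO the shares were 18.2% and 21.9%. In WT the share with *Runx3* was lower among cells with *Zbtb7b*, with intervals that did not overlap, and in *Eif4g2* cKO both shares rested on few cells. In WT early post-selection-like cells 0 of 22 cells with *Zbtb7b* had *Runx3* (0 to 15.4%), against 4.95% (3.43 to 6.88) of the 667 without. These intervals overlapped, so no difference was detectable there. WT erythroid cells had a *Runx3* UMI in 0 of 44 cells, which allows a share of up to 6.82% of cells with a UMI.

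Other genes of the lineage-choice network were taken from a list, and they are given for mature SP-like cells. Of 15 further factors of T lineage choice with enough UMIs, 11 were lower by over 0.5 in *Eif4g2* cKO and 0 were higher, among them *Nfatc1* at -1.25 and *Irf1* at -1.12, while *Id3*, an inhibitor of E proteins, stood at -0.12 and *Tcf7* at 0.03. Of 5 BTB zinc finger relatives of ThPOK, 4 were lower, with *Bcl6* at -1.65, *Zbtb1* at -1.35 and *Zbtb7a* at -0.59, and *Zbtb17* stood at -0.39. Of 4 RUNX partners and corepressors 1 was lower, *Cbfa2t3* at -0.90, and *Tle3* stood at -0.09. *Tox4*, the 1 TOX relative with enough UMIs, stood at -0.94. The counts of these groups, set beside all genes below, were not centred on genes of like span, with which the ratios varied.

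Genes listed for the helper and cytotoxic lineages were mixed. Of 6 helper-lineage genes 2 were lower, *Ctla4* at -1.30 and *Foxp3* at -1.09, both genes of regulatory T cells, and 1 was higher, *Cd4* at 0.51, while *Socs1* stood at 0.13. Of 6 cytotoxic-lineage genes 3 were lower, with *Itgae*, the integrin CD103, at -2.0 and *Nkg7*, a granule gene, at -1.16, while *Cd8b1* stood at -0.18 and *Cd8a* at -0.05. These counts stand beside the 36.3% of all genes that were lower and the 8.77% that were higher in mature SP-like cells. *Ctla4* and *Foxp3* did not mark the Cd4-only gate of WT. Their log2 differences of Cd4-only to Cd8-only cells were -0.45 (-0.87 to -0.04) and 0.37 (-1.22 to 1.83). Those of *Cd40lg*, *Cd28* and *Socs1* were 2.58, 0.93 and 0.45.

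The genes whose levels ran most like each factor were found by Pearson's r of log2(CPM + 10) over 20 points, each a T lineage cluster in 1 library. The points share libraries and depth, and r is given as a description. *Zbtb7b* ran most like *Gimap4* (0.98), *Cd40lg* (0.96) and *Gimap3* (0.96), and *Runx3* most like *Psmb10* (0.95), *Ccnd2* (0.94) and *Nkg7* (0.94). *Runx1* ran most like *Pag1* (0.91), *Etv6* and *Anks1*, and *Tox* most like *Arap2* (0.95), *Tmc6* and *St6gal1*. *Satb1* ran most like *Slamf1* (0.97), *Dzip1* and *Cry1*, *Myb* most like *Mplkip* (0.94), *Ppt2* and *Prrt1*, and *Patz1* most like *Ppt1* (0.96), *Tmem131* and *Smim3*. The values of *Gata3*, led by *Sh3bp2* (0.85), and of *Cbfb*, led by *Pank2* (0.84), were lower. *Tox2*, with 94 UMIs in T lineage cells, was under the minimum of 200 for this measure.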

How the data were processed

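Thymus cells of 1 WT and 1 *Eif4g2* cKO mouse were profiled on the DNBelab C4 system. The authors ran dnbc4tools, given as version 2.1.3 in the labels and as 3.0 in the file headers, and deposited UMI counts per gene and barcode without normalization. The build in the submitters' processing notes is mm10, and positions were taken from GENCODE M21. Oligo libraries had no values of their own. Cell names were running numbers, 1055 of them in both libraries, so shared barcodes could not be counted. Cells with at least 50 genes and at most 10% mitochondrial UMIs were kept, and no doublets were removed.

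Clustering used scanpy 1.11.5 and leidenalg 0.10.2 (2000 variable genes, 30 components, 20 neighbours, resolution 1.0), and clusters were named where at least 3 markers and 50% of a list were raised by over 0.5 on the log2 scale. CPM received exact Poisson intervals, shares exact Clopper-Pearson intervals and ratios exact conditional binomial intervals (scipy 1.17.1). A floor of 3 UMIs applies where a library is at 0. Named genes were the 10 factors, the coreceptor genes, the 3 genes most like each factor, up to 2 highest and 2 lowest of each context group, and label checks. Steps were tested on simulated counts. Members and lists were chosen with earlier results of these data known.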

Additional observations from a re-analysis of the deposited data

Results flagged for a closer look

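The ratio of *Eif4g2* cKO to WT for *Gata3* had opposite signs between stages, with intervals apart from 0 on both sides. It was -0.18 in proliferating cells and -0.28 in early post-selection-like cells, and 0.24 in DP-like cells and 0.48 in mature SP-like cells, on the log2 scale. Relative to the median of all genes of each stage the values were 0.09, -0.02, 0.42 and 0.73. Relative to genes of like span they were 0.22 in proliferating and 0.12 in early post-selection-like cells, and also above 0 in DP-like and mature SP-like cells. The opposite signs thus depend on the centre against which the ratios are read. The difference between stages was not tested, since each genotype had 1 library. The mature value ranged from 0.051, with cells thinned to 1000 UMIs, to 1.14, at a clustering resolution of 0.6.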

How the results depend on the processing

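With 1 library per genotype the results rest on counting error alone, depth limits *Tox2* everywhere and *Zbtb7b* before maturity, and a difference of cell state within a class cannot be told apart from one of genotype. No paired analysis was possible because each genotype had 1 library. Of 305 alternative values for ratios between genotypes 230 moved by less than their interval, 66 moved further and 9 were counted as reversed. Of 166 for the coreceptor gates these were 145, 18 and 3. The 9 and 3 do not hold every change of sign. Over the settings *Runx3* ran from -0.51 to 0.56 in DP-like cells and *Patz1* from -0.62 to 0.32 in mature SP-like cells. The WT gate difference of *Patz1* ran from -0.48 to 0.19. The cause of these changes was not tested. Within DP cluster 0, chosen after seeing the data as were clusters 1 and 2 and the setting without the cycling mature cluster, *Runx1* stood at 0.014, *Myb* at 0.082 and *Satb1* at 0.35, with 0 factors lower and 2 higher beside 21.5% and 18.3% of all genes. *Patz1* in DP-like cells stood at 0.017 centred on its span class, 0.033 in cluster 1 and 0.23 in cluster 2. In early post-selection-like cells *Gata3* stood at 0.11 with stages from marker UMIs and 0.12 centred on its span class, and *Myb* at 0.037 with stages from marker UMIs. Of the gate differences in WT, *Gata3* became -0.093 with stages from marker UMIs and -0.048 over all post-selection cells, *Tox* became -0.062 over all post-selection cells, and *Runx3* became -1.52 at resolution 0.6 and -2.85 thinned to 1000 UMIs. The *Runx3* gate difference in *Eif4g2* cKO ranged from -1.59 to -0.25. Centred on span classes, 1 factor was lower and 1 higher in DP-like cells (14.2% and 12.4% of all genes), 1 and 1 in early post-selection-like cells (16.4% and 15.6%) and 3 and 3 in mature SP-like cells. Centred on all genes, 2 were lower in early post-selection-like cells (23.0%) and 1 was higher in mature SP-like cells (19.7%). At a threshold of 1, 1, 2 and 3 were lower in these stages (7.81%, 13.3% and 16.1%). With stages from marker UMIs 3 were lower and 2 higher in mature SP-like cells (30.6% and 10.4%), where *Satb1* stood at -0.18 and *Tox* at -0.37. There 1 was higher at resolution 0.6, at 1.6, with each library clustered alone, with the factors among the clustering genes, with each cell weighted alike and without the cycling mature cluster. The share of all genes is not given for these settings, so this count cannot be set against it.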
